A study of Danio rerio with 6 samples.

Results

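The pancreatic islet hormone genes ins, gcga, GCG and sst2 were followed through 6 zebrafish liver RNA-seq libraries. They are the 4 genes, of 32520 in the count table, whose listed symbol is one of these names, and no low-count filter was applied to them. The identifiers are ENSDARG00000035350 for ins, ENSDARG00000079296 for gcga, ENSDARG00000040907 for GCG and ENSDARG00000014190 for sst2. These genes were chosen with their levels in these libraries already known, so their own comparison between the groups is given as a description. How many of them a fit over all genes called is stated once, and nothing is drawn from it.

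Insulin, glucagon and somatostatin are made by the beta, alpha and delta cells of the islets, which in zebrafish lie within the pancreas. Insulin lowers blood glucose, glucagon makes the liver release glucose, and somatostatin restrains both of the other hormones. Hepatocytes are a main target of insulin and glucagon and are not known as a source of any of these hormones. The gene ins encodes preproinsulin, gcga and GCG are listed as copies of the preproglucagon gene, and sst2 encodes a somatostatin precursor.

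The libraries came from liver of wild-type fish of the AB strain. The series title places the fish as offspring in a study of long-term effects of sperm freezing. In the cryopreserved group the sperm had been frozen, and in the fresh group, the control, it had not, with 3 libraries each. Neither sex, age nor the number of fish behind a library is given in the labels, so differences between libraries of a group may be biological or technical. Total counts ran from 8277183 to 16146121 in the cryopreserved group and from 16885619 to 17606733 in the fresh group. All 8 hepatocyte markers were abundant in every library, with a summed level of 150872 to 241288 CPM (counts scaled to the size of the library) in the cryopreserved group and 142143 to 170496 CPM in the fresh group. Cryopreserved replicates 2 and 3 stood apart through vitellogenin, the egg yolk precursor that oestrogen induces in liver. It took 17.4% and 12.4% of their counts, against at most 0.000604% in the other libraries. The part of this difference in the results below was not tested.

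Islet hormone RNA was concentrated in a single library. Cryopreserved replicate 1 held 2658 of the 3002 counts of the 4 genes, or 88.5%, while cryopreserved replicate 2, from the same group, held 1. Cryopreserved replicate 3 had 157 counts. The fresh libraries 1, 2 and 3 had 4, 169 and 13. The summed level was 172, 0.142 and 17.4 CPM in cryopreserved replicates 1, 2 and 3, against 0.235, 9.20 and 0.778 CPM in fresh replicates 1, 2 and 3. The groups therefore overlapped, with the highest and the lowest library both in the cryopreserved group. CPM here are scaled by edgeR's TMM factors, and intervals below are 95% intervals that cover counting error only. In bulk tissue, fewer cells of a type and less RNA per cell cannot be told apart.

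The insulin gene ins had 149, 0 and 7 counts in cryopreserved replicates 1, 2 and 3, against 0, 12 and 4 in fresh replicates 1, 2 and 3. These are 9.64, 0 and 0.777 CPM in the cryopreserved libraries and 0, 0.653 and 0.239 CPM in the fresh libraries. Apart from cryopreserved replicate 1, every library thus lay under 1 CPM. For a count of 0 the two-sided interval reaches 0.523 CPM in cryopreserved replicate 2 and 0.217 CPM in fresh replicate 1, and the floor of 3 counts, a one-sided limit, lies at 0.426 CPM in cryopreserved replicate 2 and 0.176 CPM in fresh replicate 1. Cryopreserved replicate 1 exceeded cryopreserved replicate 3 by 12.4-fold (interval 5.87 to 31.4) and fresh replicate 2 by 14.8-fold (8.20 to 29.2). Cryopreserved replicate 3 and fresh replicate 2 were not told apart, at a ratio of 1.19 (0.397 to 3.28).

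The preproglucagon gene gcga had 902, 1 and 34 counts in cryopreserved replicates 1, 2 and 3, against 3, 51 and 7 in fresh replicates 1, 2 and 3. Its levels were 58.4, 0.142 and 3.77 CPM in the cryopreserved libraries and 0.176, 2.78 and 0.419 CPM in the fresh libraries. The order over libraries was the same as for ins among the libraries with counts. Cryopreserved replicate 1 stood 15.5-fold above cryopreserved replicate 3 (11 to 22.5) and 21.0-fold above fresh replicate 2 (15.8 to 28.4). The next pair, cryopreserved replicate 3 over fresh replicate 2, again spanned equality at 1.36 (0.854 to 2.14).

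The copy listed as GCG had 240, 0 and 18 counts in cryopreserved replicates 1, 2 and 3, against 0, 29 and 0 in fresh replicates 1, 2 and 3. That is 15.5, 0 and 2.0 CPM in the cryopreserved libraries and 0, 1.58 and 0 CPM in the fresh libraries. It was the only hormone gene of the 4 with a single fresh library above 0. The ratio of cryopreserved replicate 1 to cryopreserved replicate 3 was 7.77 (4.81 to 13.3), and to fresh replicate 2 it was 9.83 (6.67 to 15.0). Reads of gcga and GCG could be split between the copies where their sequences are alike.

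The somatostatin gene sst2 had the most counts, with 1367, 0 and 98 in cryopreserved replicates 1, 2 and 3, against 1, 77 and 2 in fresh replicates 1, 2 and 3. Its levels were 88.4, 0 and 10.9 CPM in the cryopreserved libraries and 0.0588, 4.19 and 0.120 CPM in the fresh libraries. Here cryopreserved replicate 3 did exceed fresh replicate 2, by 2.60-fold (1.91 to 3.54). Cryopreserved replicate 1 was 8.13-fold above cryopreserved replicate 3 (6.62 to 10.1) and 21.1-fold above fresh replicate 2 (16.8 to 26.9).

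**Figure D1:**
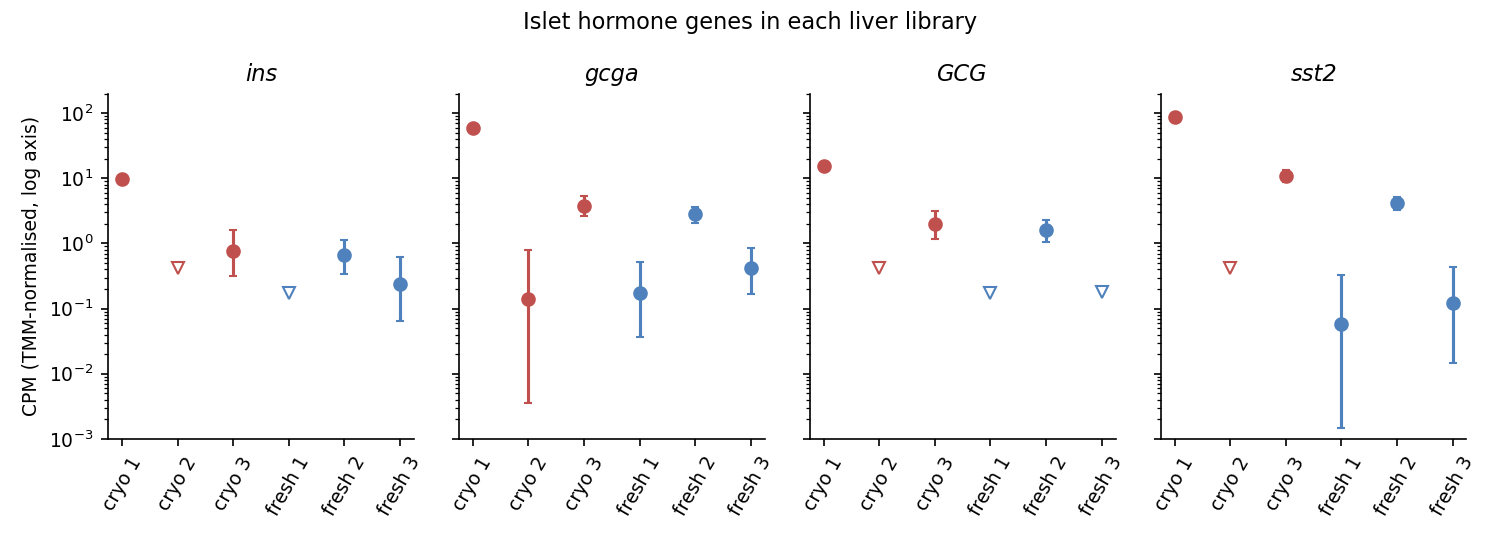
Level of each islet hormone gene in each library, in TMM-normalised CPM on a log axis, with cryopreserved (cryo) libraries in red and fresh libraries in blue. Bars are 95% counting intervals and open triangles mark the level of 3 counts in a library with a count of 0. Cryo 1 is highest in every panel, from 9.64 CPM for ins to 88.4 CPM for sst2, and cryo 2 holds a single gcga count.

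As group means, the 4 genes together came to 63.2 ± 94.6 CPM in the cryopreserved group and 3.40 ± 5.03 CPM in the fresh group (SD, n = 3 each). The mean of sst2 was 33.1 ± 48.2 CPM in the cryopreserved group and 1.46 ± 2.37 CPM in the fresh group. That of gcga was 20.8 ± 32.6 CPM in the cryopreserved group and 1.12 ± 1.44 CPM in the fresh group. GCG averaged 5.84 ± 8.45 CPM in the cryopreserved group and 0.526 ± 0.912 CPM in the fresh group, and ins 3.47 ± 5.35 CPM in the cryopreserved group and 0.298 ± 0.331 CPM in the fresh group. For all 4 genes the SD was larger than the mean in both groups. The ratio of means, cryopreserved over fresh, was 22.7 for sst2, 18.5 for gcga, 11.7 for ins and 11.1 for GCG. Without cryopreserved replicate 1 these ratios were 3.73 for sst2, 1.74 for gcga, 1.31 for ins and 1.90 for GCG. Without fresh replicate 2 they were above the full values, at 69.8 for gcga, 29.0 for ins and at least 65.7 for GCG, whose remaining fresh libraries had no count and were set to a floor of 3 counts over both. For sst2 that ratio was 371, with an interval of 127 to 1799 from the 3 counts left in the fresh group.

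All 4 genes passed the low-count filter of edgeR, through cryopreserved replicates 1 and 3 and fresh replicate 2. By edgeR's quasi-likelihood test over all 12674 genes tested, 1.98% of genes were called at an adjusted p under 0.05, 1.02% as higher and 0.963% as lower in the cryopreserved group, and 0 of the 4 hormone genes were. Before adjustment 3 of the 4 had a p under 0.05, as did 18.5% of all genes. DESeq2 called 8.96% of all genes and limma-voom 2.03%, and each called 0 of the 4, with 1 under 0.05 before adjustment by DESeq2 and 0 by limma-voom. Whether DESeq2 gave a p for each of the 4 was not counted, so its 0 may include genes without one. Without a low-count filter edgeR called 3.23% of genes and 0 of the 4, all 4 with an unadjusted p under 0.05. Every cryopreserved library lay above every fresh library for 11.2% of tested genes and for 0 of the 4. Since the genes were chosen on this contrast, nothing is read from these counts.

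In the 3 libraries with enough hormone counts, sst2 took the largest share of them, followed by gcga, GCG and ins. Shares of the 4 genes' counts are not corrected for transcript length, so they compare libraries and not genes. In cryopreserved replicate 1, sst2 took 51.4% of hormone counts (exact interval 49.5 to 53.3), gcga 33.9% (32.1 to 35.8), GCG 9.03% (7.97 to 10.2) and ins 5.61% (4.76 to 6.55). In cryopreserved replicate 3, sst2 took 62.4% (54.3 to 70.0) and gcga 21.7% (15.5 to 28.9). In fresh replicate 2, sst2 took 45.6% (37.9 to 53.4) and gcga 30.2% (23.4 to 37.7). The insulin share in these libraries was 4.46% (1.81 to 8.97) in cryopreserved replicate 3 and 7.10% (3.72 to 12.1) in fresh replicate 2, with intervals that overlap that of cryopreserved replicate 1. The intervals of GCG were apart between cryopreserved replicate 1 and fresh replicate 2, where it took 17.2% (11.8 to 23.7), and those of sst2 and gcga were apart between cryopreserved replicates 1 and 3. Those of sst2 were also apart between cryopreserved replicate 3 and fresh replicate 2.

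**Figure D2:**
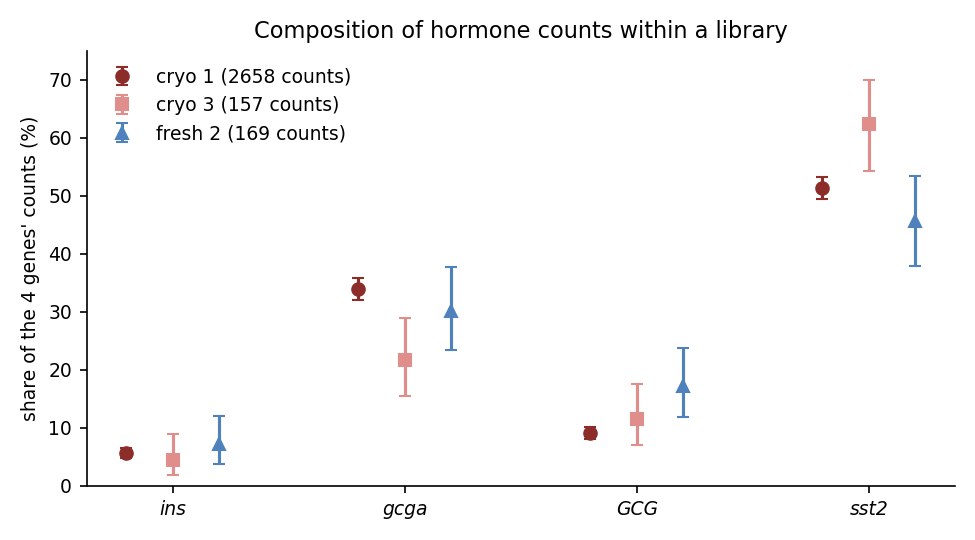
Share of each gene in the summed counts of the 4 hormone genes, in percent, for the 3 libraries with more than 13 hormone counts. Points are shares and bars are exact 95% binomial intervals. The order of the 4 genes is the same in the 3 libraries, with sst2 at 45.6% to 62.4% and ins at 4.46% to 7.10%. Intervals of sst2, gcga and GCG are apart between some of these libraries.

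Other hormone genes of islets were also most abundant in cryopreserved replicate 1. Of 8 further hormone genes matched, 5 had counts, and the 4 with at least 10 counts were all highest in cryopreserved replicate 1, as were 18.6% of all genes with at least 10 counts. The somatostatin gene SST (ENSDARG00000040799) had 927, 0 and 19 counts in cryopreserved replicates 1, 2 and 3, against 3, 58 and 9 in fresh replicates 1, 2 and 3. The copy sst1.2 had 870, 1 and 74 counts in cryopreserved replicates 1, 2 and 3, against 2, 55 and 3 in fresh replicates 1, 2 and 3. The level of SST was 2.11 CPM in cryopreserved replicate 3 and 3.16 CPM in fresh replicate 2. No interval was computed for this pair of libraries, so the 2 levels are not ranked. By edgeR neither passed, with log2 changes, cryopreserved over fresh, of 4.0 ± 1.79 for SST (SE, adjusted p = 0.283) and 4.28 ± 1.68 for sst1.2 (adjusted p = 0.229). Without cryopreserved replicate 1 the change of SST turned to -0.23 (edgeR adjusted p = 0.948). Among the 3 somatostatin copies, SST took 29.3% of counts in cryopreserved replicate 1 (27.7 to 30.9) and 30.5% in fresh replicate 2 (24.1 to 37.6), but 9.95% in cryopreserved replicate 3 (6.1 to 15.1).

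The genes of ghrelin and GIP, hormones that gut endocrine cells also make, had lower counts than SST and sst1.2 in cryopreserved replicate 1. There gip had more counts than ins, at 176 against 149. The ghrelin gene ghrl had 90, 0 and 5 counts in cryopreserved replicates 1, 2 and 3, against 0, 11 and 1 in fresh replicates 1, 2 and 3. The gene gip had 176, 0 and 28 counts in the same cryopreserved libraries and 2, 7 and 2 in the fresh libraries. Both were thus highest in cryopreserved replicate 1 and at 0 in cryopreserved replicate 2. PYY, with 2, 0 and 2 counts in the cryopreserved libraries and 3, 0 and 0 in the fresh libraries, was too low to rank them. The genes insb, sst6 and pyya had no count in any library. A list of 12 other gut endocrine hormone genes had 40, 12 and 15 counts in cryopreserved replicates 1, 2 and 3. In fresh replicates 1, 2 and 3 that list had 31, 8 and 26 counts. Intestinal markers, a list of 7 genes, summed to 22.8, 21.8 and 14.4 CPM in cryopreserved replicates 1, 2 and 3, against 8.0 to 9.53 CPM in fresh libraries. Most of each sum came from CDH17, at 18.2, 21.1 and 10.7 CPM in the cryopreserved libraries and 7.06, 8.55 and 8.02 CPM in the fresh libraries. A wider list of 11 intestinal genes, with TM4SF5 and the ANPEP copies, summed to 92.4, 102 and 112 CPM in cryopreserved replicates 1, 2 and 3. In fresh replicates 1, 2 and 3 the wider list summed to 92.2, 98.4 and 86.7 CPM, so its groups overlapped. The SLC15A1 copy ENSDARG00000044528 had 9, 0 and 0 counts in the cryopreserved libraries and 7, 9 and 5 in the fresh libraries. Its copy ENSDARG00000100315 had 9, 1 and 1 counts in the cryopreserved libraries and 4, 4 and 7 in the fresh libraries. The enterocyte marker FABP6 was at 0 throughout, and FABP2 had 3 counts in fresh replicate 2 and none elsewhere. VIL1, a brush border gene, had 45, 4 and 28 counts in cryopreserved replicates 1, 2 and 3, against 5, 0 and 0 in fresh replicates 1, 2 and 3. The intestinal regulator cdx1b had 7, 0 and 5 counts in the cryopreserved libraries and 0, 2 and 0 in the fresh libraries. Both were thus highest in cryopreserved replicates 1 and 3. The part of intestinal RNA in these counts was not tested.

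Regulators and secretory machinery of endocrine cells were also found in cryopreserved replicate 1. Of 64 matched transcription factor and hormone processing genes, 34 had at least 10 counts, and 17 of these were highest in cryopreserved replicate 1, against 18.6% of all genes. Of the 34 genes 22 did not pass edgeR's low-count filter, and 16 of the 17 were among these. Genes such as NEUROD1 and ISL1 reached 10 counts only through cryopreserved replicate 1, so nothing is drawn from the 17. The genes of this list named here were chosen after their values were seen. NEUROD1, a transcription factor of endocrine differentiation, had 37 counts in cryopreserved replicate 1 and 0 in each of the other libraries, in both groups. ISL1, an islet transcription factor, had 26, 0 and 2 counts in cryopreserved replicates 1, 2 and 3 and 0 in every fresh library. PAX6 (ENSDARG00000045936) had 24, 1 and 0 counts in the cryopreserved libraries, against 0, 1 and 1 in the fresh libraries. By contrast pdx1, a beta-cell and pancreas regulator, had no count in any library.

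Among genes of hormone processing, PCSK2, the convertase that cuts glucagon from its precursor, had 16, 2 and 0 counts in cryopreserved replicates 1, 2 and 3 and 0 in every fresh library. The convertase gene PCSK1 had 2, 1 and 0 counts in the cryopreserved libraries and 0, 0 and 2 in the fresh libraries, too few to rank them. CPE, which trims peptide ends after cleavage, had 43, 0 and 0 counts in the cryopreserved libraries, against 6, 5 and 5 in the fresh libraries. The proSAAS-like gene pcsk1nl had 70, 0 and 1 counts in the cryopreserved libraries and 0, 6 and 0 in the fresh libraries. The granule protein genes chga and scg2b had 19 and 40 counts in cryopreserved replicate 1 and at most 3 elsewhere in either group. The exceptions included chgb, with 8, 12 and 5 counts in the cryopreserved libraries and 10, 10 and 7 in the fresh libraries. ABCC8 (ENSDARG00000077007), a subunit of the beta-cell potassium channel, had 0 in every cryopreserved library, against 1, 8 and 3 counts in the fresh libraries.

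**Figure D3:**
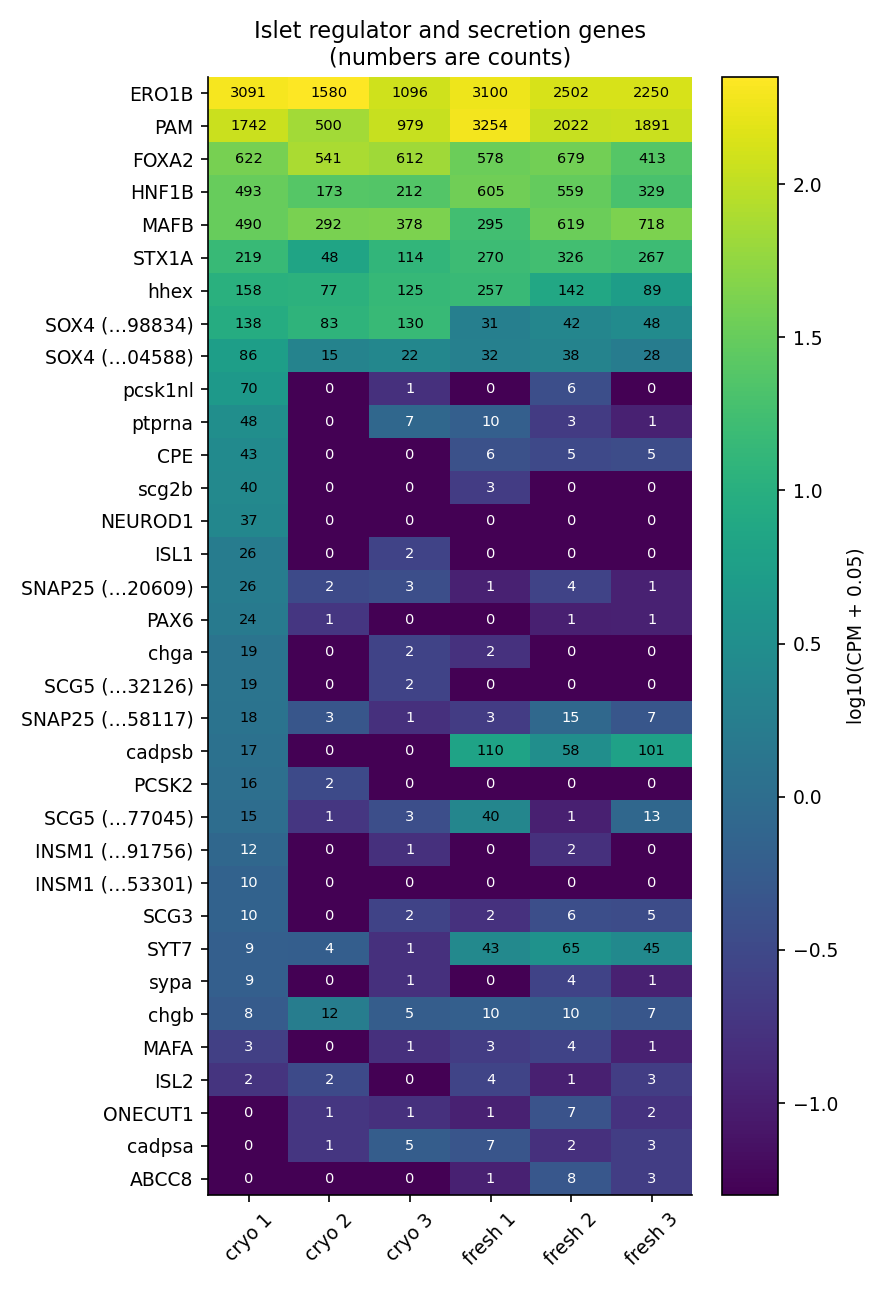
Counts (numbers) and levels (colour, log10 of CPM plus 0.05) of the 34 islet transcription factor and secretion genes with at least 10 counts in all, by library. Rows run from the highest to the lowest level in cryo 1. Cryo 1 is the highest library for 17 genes, such as pcsk1nl with 70 counts, and not for the other 17, among them ERO1B, PAM and cadpsb. Of the 17 genes highest in cryo 1, 16 did not pass edgeR's low-count filter.

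Neurons use some of the same secretory genes, and the order of libraries by neuronal markers turned on GAD1. The 8 neuronal markers summed to 7.70, 0.709 and 0.888 CPM in cryopreserved replicates 1, 2 and 3, against 9.03 to 9.64 CPM in fresh libraries. Without the 2 GAD1 copies the other 6 had 55, 5 and 5 counts in cryopreserved replicates 1, 2 and 3, against 6, 22 and 10 in fresh replicates 1, 2 and 3, or 3.56, 0.709 and 0.555 CPM in the cryopreserved libraries against 0.353, 1.2 and 0.598 CPM in the fresh libraries. Cryopreserved replicate 1 was then the highest, with both SNAP25 copies, which are on the secretion list too, highest there. The GAD1 copy ENSDARG00000093411 had no count in the cryopreserved libraries and 55, 119 and 105 in the fresh libraries (edgeR adjusted p = 0.0161). The part of neuronal RNA in the hormone library was not tested. The pan-neuronal genes ELAVL3 and ELAVL4 had 3 and 7 counts in cryopreserved replicate 1 and at most 1 elsewhere. Duct markers summed to 851, 564 and 429 CPM in the cryopreserved libraries and 432 to 627 CPM in the fresh libraries. Of these 6 genes epcam and CFTR were at 0 in every library, and the other 4 had counts in every library. SOX9 (ENSDARG00000043923) had 13.9, 19.2 and 9.1 CPM in the cryopreserved libraries and 13.7, 13.6 and 9.57 CPM in the fresh libraries.

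Digestive enzyme genes of the exocrine pancreas, the tissue that surrounds the islets, were present in every library, but hormone counts were not proportional to them. The 12 exocrine markers, among them trypsin, elastase, carboxypeptidase and amylase genes, summed to 2703, 1176 and 3548 CPM in cryopreserved replicates 1, 2 and 3, against 513, 471 and 276 CPM in fresh replicates 1, 2 and 3. The exocrine sums did not overlap between the groups, whereas the hormone sums did. Among single tested genes, 11.2% had every cryopreserved library above every fresh library. The part of pancreatic tissue in the hormone counts was not tested. For every 1000 exocrine counts there were 63.6 hormone counts in cryopreserved replicate 1 (interval 61.1 to 66.2), 0.121 in cryopreserved replicate 2 (0.00306 to 0.673) and 4.91 in cryopreserved replicate 3 (4.17 to 5.75). In fresh replicates 1, 2 and 3 there were 0.458 (0.125 to 1.17), 19.5 (16.7 to 22.7) and 2.82 (1.5 to 4.82). Cryopreserved replicate 1 thus had 9.87 times the hormone level of cryopreserved replicate 3 at 0.762 times its exocrine level. Fresh replicate 2 had 39.1 times the hormone level of fresh replicate 1 at 0.918 times its exocrine level. The 39.1 rests on 4 hormone counts in fresh replicate 1 and has no interval. The mean of the library ratios was 22.9 in the cryopreserved group and 7.60 in the fresh group. These were 2.52 in the cryopreserved group without its replicate 1 and 1.64 in the fresh group without its replicate 2. A wider list of 34 exocrine genes summed to 4566, 2389 and 5595 CPM in cryopreserved replicates 1, 2 and 3. In fresh replicates 1, 2 and 3 that list summed to 1203, 914 and 581 CPM. Of its 24 tested genes 1, PLA2G1B, had a negative log2 change, of -0.63 ± 0.28 (edgeR adjusted p = 0.284).

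**Figure D4:**
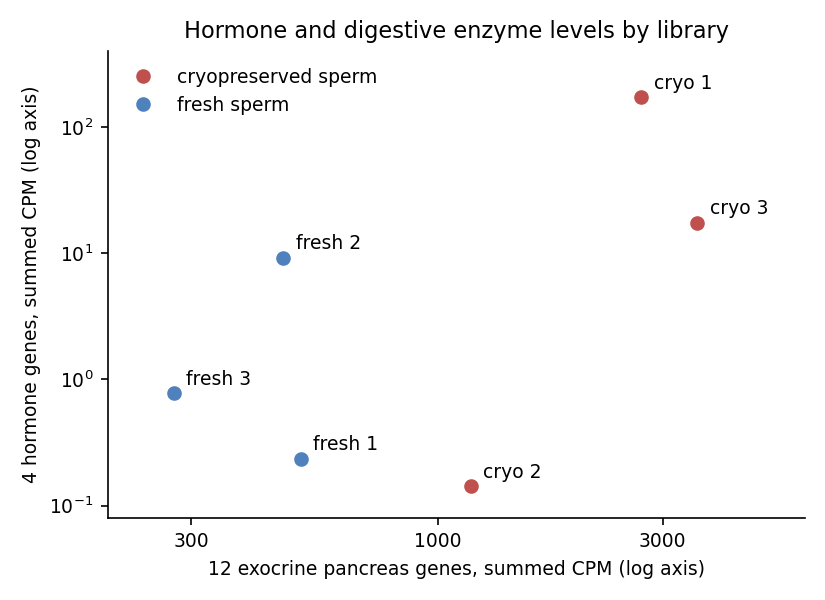
Summed CPM of the 4 hormone genes against summed CPM of 12 exocrine pancreas markers, both on log axes, 1 point per library. Exocrine levels lie at 1176 to 3548 CPM in the cryopreserved libraries and at 276 to 513 CPM in the fresh libraries, while hormone levels span 0.142 to 172 CPM in the cryopreserved libraries and 0.235 to 9.20 CPM in the fresh libraries.

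The whole table was searched for genes with a pattern like that of the hormones. Across the 6 libraries, the Pearson correlation of log2 CPM with that of the summed hormone counts was computed for 11807 genes with a mean of at least 1 CPM. Points share their libraries and cryopreserved replicate 1 lies far from the rest, so the values are a description. Over 0.9 were 0.949% of these genes. The first was sst1.2 (r = 0.989, and 0.976 without cryopreserved replicate 1), and ghrl was the third (0.978, and 0.987 without it). However, ghrl reached a mean of 1 CPM only through cryopreserved replicate 1. It had at most 11 counts in any other library, so nothing is drawn from its rank. The hormone genes SST and gip were not among the 10 genes of highest correlation. ASPHD2 was the next after sst1.2, at 0.987, but its level only ranged from 3.41 to 5.76 CPM in the cryopreserved libraries and from 3.71 to 4.46 CPM in the fresh libraries. P3H1, galnt14, arhgef6, si:dkey-93h22.7, BBS5, TAF3 and crp3 followed at 0.971 to 0.977. Their levels also varied far less than those of the hormones. TAF3, for example, ranged from 16.5 to 27.6 CPM in the cryopreserved libraries and from 17.4 to 22.4 CPM in the fresh libraries. The 12 exocrine markers had correlations from 0.182 to 0.802, with a median of 0.602.

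The liver's receptors for these hormones were compared between the groups, as genes that the choice of hormone genes did not use. Of 7 tested genes for receptors and hormone clearance, 0 were called by edgeR, DESeq2 or limma-voom, beside 1.98%, 8.96% and 2.03% of all genes. Before adjustment 2 had an edgeR p under 0.05 (SSTR2 and dpp4), beside 18.5% of all genes. The insulin receptor gene INSR (ENSDARG00000011948) had 61.6, 46.5 and 73.2 CPM in cryopreserved replicates 1, 2 and 3, against 52.4, 73.7 and 63.5 CPM in fresh replicates 1, 2 and 3. Its log2 change was -0.06 ± 0.27 (SE, edgeR adjusted p = 0.929), and the groups overlapped. The second copy, ENSDARG00000071524, had -0.44 ± 0.32. The glucagon receptor gene gcgra had 0.323, 0 and 5.33 CPM in the cryopreserved libraries, against 16.1, 16.0 and 1.5 CPM in the fresh libraries, a log2 change of -2.58 ± 1.3 (edgeR adjusted p = 0.340). Its other copy gcgrb had 31.6, 6.24 and 25.9 CPM in the cryopreserved libraries and 33.5, 41.0 and 53.9 CPM in the fresh libraries, without overlap, and did not pass either (edgeR adjusted p = 0.357). The somatostatin receptor gene SSTR2 (ENSDARG00000059090) had 19.0, 8.94 and 15.0 CPM in the cryopreserved libraries, against 25.1, 37.5 and 26.8 CPM in the fresh libraries. The groups of SSTR2 did not overlap, and its log2 change of -1.05 ± 0.33 missed the threshold (edgeR adjusted p = 0.145). How many of all genes had every cryopreserved library below every fresh library was not counted. Nothing is therefore drawn from the lack of overlap of gcgrb and SSTR2.

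IDE, which encodes the insulin-degrading enzyme, had a log2 change of -0.61 ± 0.32 (edgeR adjusted p = 0.359). The gene dpp4, whose product inactivates incretin peptides, had 1.41 ± 0.51 (edgeR adjusted p = 0.191). In cryopreserved replicate 1, the library highest in hormone RNA, INSR (ENSDARG00000011948), gcgra, gcgrb, SSTR2 and IDE lay within the range of the other 5 libraries. There dpp4 was the highest of all libraries, at 2.78 CPM, and the second INSR copy the lowest, at 17.1 CPM.

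Among liver genes that respond to insulin or glucagon in vertebrates, 32 were tested and 3 fell, against 0.963% of all genes called lower in the cryopreserved group. PPARGC1A, a coactivator that glucagon induces, fell by 2.07 ± 0.32 on the log2 scale, to 2.49 ± 0.321 CPM in the cryopreserved group against 10.6 ± 2.89 CPM in the fresh group (SD, n = 3 each; edgeR adjusted p = 0.0251). PDK2 (ENSDARG00000020876), a kinase gene that limits pyruvate oxidation, and cpt1ab, for the carnitine step of fatty acid oxidation, also fell. Their log2 changes were -2.10 ± 0.35 (edgeR adjusted p = 0.0300) and -1.64 ± 0.31 (edgeR adjusted p = 0.0430). The levels of cpt1ab were 76.6, 56.8 and 48.6 CPM in cryopreserved replicates 1, 2 and 3, against 223, 138 and 208 CPM in fresh replicates 1, 2 and 3. For PDK2 they were 19.3, 22.6 and 37.2 CPM in the cryopreserved libraries and 110.0, 85.3 and 145 CPM in the fresh libraries. The groups did not overlap for either gene, though the share of all genes without overlap in this direction was not counted. Cryopreserved replicate 1 was the lowest library for PDK2 but not for cpt1ab. The other copies did not pass. PDK2 (ENSDARG00000059054) had a log2 change of -2.62 ± 0.72 (edgeR adjusted p = 0.105). CPT1A (ENSDARG00000059770) had -0.82 ± 0.29 (edgeR adjusted p = 0.18).

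Other classical targets did not pass. PCK1, whose enzyme commits carbon to glucose and which glucagon induces and insulin represses, averaged 903 ± 681 CPM in the cryopreserved group and 2666 ± 1041 CPM in the fresh group (SD, n = 3 each; edgeR adjusted p = 0.344). IGFBP1 (ENSDARG00000099351), which insulin represses, averaged 1202 ± 993 CPM in the cryopreserved group and 3419 ± 1546 CPM in the fresh group (edgeR adjusted p = 0.356). The lipid synthesis gene FASN was lower too, with a log2 change of -1.1 ± 0.26 (SE, edgeR adjusted p = 0.0746). SREBF1, also of lipid synthesis, had -0.74 ± 0.35 (edgeR adjusted p = 0.317). ACACA, of the same process, went the other way at 0.85 ± 0.77 (edgeR adjusted p = 0.604). Hormone action on these genes was not tested. Of the 32 genes 26 had a negative and 6 a positive change, with a median log2 change of -0.868, beside 0 over all tested genes. DESeq2 called 11 of them, beside 8.96% of all genes, and limma-voom 3, beside 2.03%. Before adjustment 14 of the 32 had an edgeR p under 0.05, beside 18.5% of all genes. All 3 edgeR calls were lost when any fresh library was left out, with edgeR adjusted p of 0.0659 to 0.0979 for PPARGC1A, 0.0869 to 0.134 for PDK2 and 0.0920 to 0.193 for cpt1ab. They were also lost without cryopreserved replicate 2 (edgeR adjusted p = 0.0610 for PPARGC1A, 0.0801 for PDK2 and 0.0973 for cpt1ab). Those of PPARGC1A and cpt1ab were lost without cryopreserved replicate 3 (edgeR adjusted p = 0.0776 for PPARGC1A and 0.123 for cpt1ab). SOX4 (ENSDARG00000098834), on the islet transcription factor list though many tissues express it, rose by 2.32 ± 0.33 on the log2 scale (edgeR adjusted p = 0.0205), to 11.7 ± 2.75 CPM in the cryopreserved group against 2.33 ± 0.526 CPM in the fresh group. It missed the threshold without any single fresh library (edgeR adjusted p of 0.0706 to 0.0906) and without cryopreserved replicate 3 (0.0505). It was the only 1 of 6 tested genes of that list to pass, beside 1.98% of all genes by edgeR. Of 6 tested processing genes, 0 passed by edgeR or limma-voom. DESeq2 called 2 of the processing genes, beside 8.96% of all genes, and 2 had an unadjusted edgeR p under 0.05, beside 18.5%. FOXA2, which endoderm organs including liver express, averaged 61.6 ± 19.1 CPM in the cryopreserved group and 31.9 ± 6.39 CPM in the fresh group (edgeR adjusted p = 0.157). Of the secretion genes, SYT7 (ENSDARG00000063568), a calcium sensor of granule release, averaged 0.420 ± 0.268 CPM in the cryopreserved group and 2.92 ± 0.543 CPM in the fresh group (edgeR adjusted p = 0.0562). The granule priming gene cadpsb averaged 0.367 ± 0.635 CPM in the cryopreserved group and 5.22 ± 1.8 CPM in the fresh group (edgeR adjusted p = 0.112).

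**Figure D5:**
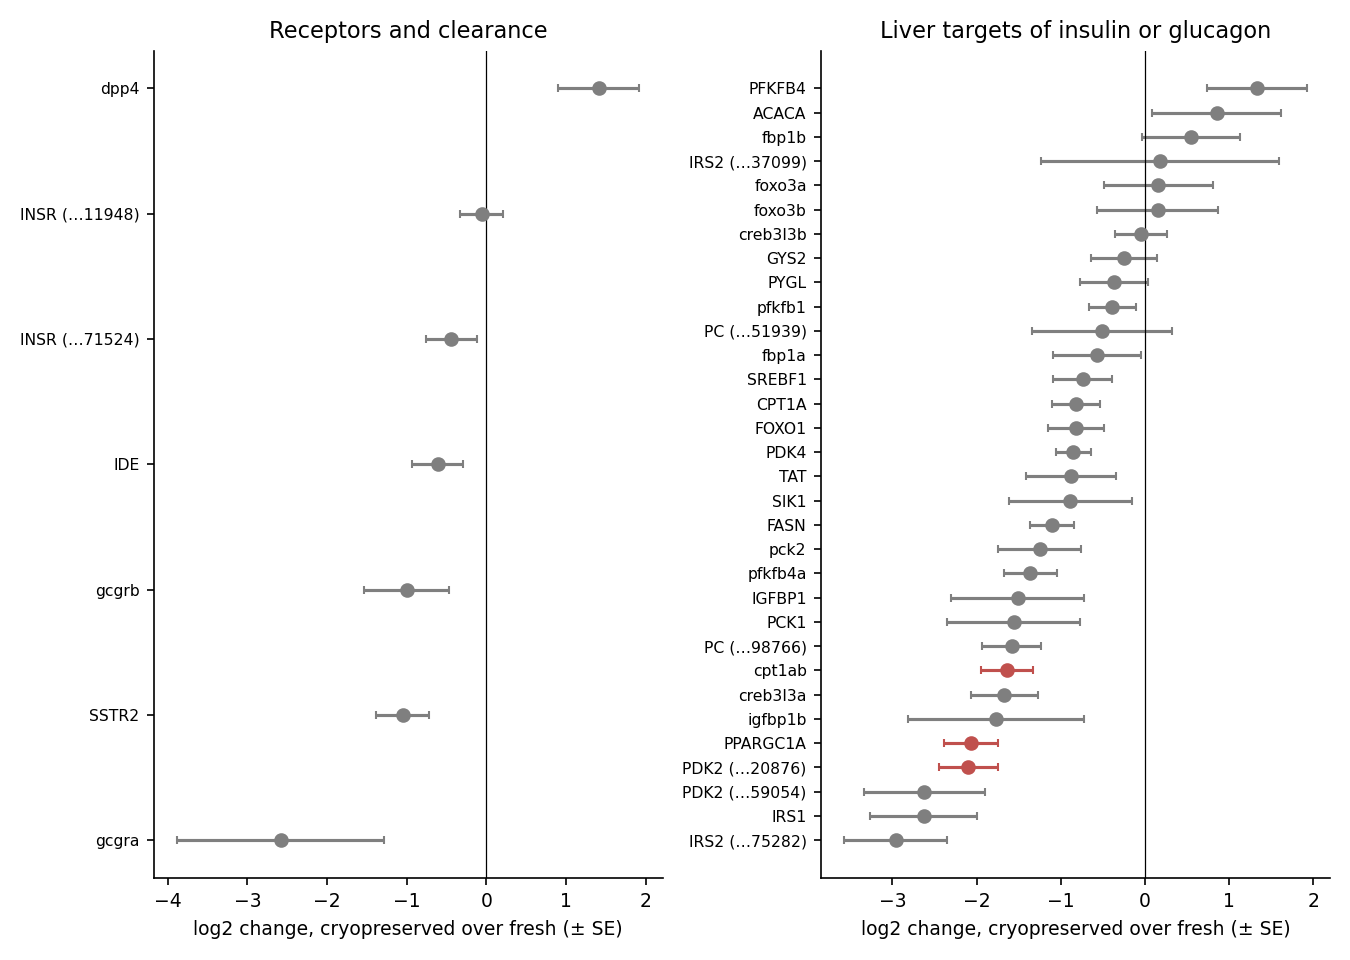
Log2 change, cryopreserved over fresh, with its SE from edgeR's fit, for the 7 tested receptor and clearance genes and the 32 tested liver targets of insulin or glucagon. Red points passed an adjusted p under 0.05: cpt1ab at -1.64, PPARGC1A at -2.07 and PDK2 at -2.10. No receptor or clearance gene passed, with changes from -2.58 for the receptor gene gcgra to 1.41 for the clearance gene dpp4.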

How the data were processed

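The authors deposited whole-number counts per Ensembl gene for 6 liver libraries of poly-A RNA. Reads were aligned with HISAT2 per the file headers, to GRCz11 (danRer11) per the submitters' processing notes. How reads were counted, on which strand and with which gene models is not given in the sources used here. Overlapping genes and near-identical copies may therefore share reads. Groups came from the treatment labels, which give fresh sperm to titles F1 to F3. Since F might equally stand for frozen, a crossed labelling would reverse every direction. All libraries carry 1 batch label.

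Symbols from a name table matched 29201 of 32520 identifiers, and 207 of 238 list symbols matched, in capitals or without a copy suffix where needed. Genes and lists were chosen with earlier results of these data known. Per list, the rule for named genes takes the 3 smallest p and the 2 highest mean CPM among tested genes, and then the 10 genes most like the hormones. Of these a part is printed, and other named genes were chosen after their values were seen. No sequence is printed, and 1 liver target is not reported here.

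edgeR 4.0.16 (R 4.3.3) tested 12674 of 21810 genes with any count: filterByExpr, TMM, quasi-likelihood fit of group, two-sided, Benjamini-Hochberg adjustment, threshold 0.05. The SE is the log2 change over the square root of F. Tested on simulated counts for this comparison (12674 genes), the fit found 4% of genes given a log2 change of 1, 70% of those given 2, 92% of those given 3 and 100% of those given 5. Of its 140 calls 7 were false. Changes were given only to genes with a mean of at least 5 CPM, so recovery of lower genes is not covered. Intervals are exact Poisson or binomial (95%), and log2 CPM used a prior count of 2. Alternatives were other size factors and filters, DESeq2 1.42.0, limma-voom (limma 3.58.1), a replicate block, each library left out, vitellogenin genes left out and, added after the data were seen, cryopreserved replicates 2 and 3 left out together. Figures were drawn with matplotlib 3.10.9.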

Additional observations from a re-analysis of the deposited data

How the results depend on the processing

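The ratios of mean CPM, cryopreserved over fresh, stayed above 1 for all 4 hormone genes under every alternative that gave a value. The genes were chosen with these levels known, so this direction is a description and no support for a group difference. With each library left out in turn the ratios ranged from 1.31 to 29.0 for ins, 1.74 to 69.8 for gcga, 1.90 to 65.7 for GCG (the upper value a lower bound), 3.73 to 371 for sst2 and 2.58 to 125 for their sum. The 1.31 for ins rests on 0 and 7 counts in cryopreserved replicates 2 and 3 and 16 in the fresh group, and has no interval. With medians in place of means the ratio was 3.25 for ins, 9.01 for gcga, 22.4 for the sum and 90.9 for sst2 (interval 25.2 to 751, from 2 fresh counts), and none could be given for GCG, whose fresh median is 0. With cryopreserved replicates 2 and 3 both left out the ratios were 32.4 for ins, 51.9 for gcga, 29.5 for GCG, 60.7 for sst2 and 50.5 for the sum, and hormone counts per 1000 exocrine counts in that group were 63.6. Total-count, RLE and vitellogenin-free scaling moved the ratio of the sum only between 17.0 and 19.2.

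Of 251 genes called in the table, and 4 in the transcription factor, processing, receptor and target lists, the counts were 705 and 11 without the low-count filter, 1136 and 14 by DESeq2, and 109 and 0 with cryopreserved replicates 2 and 3 left out. Leaving out each library in turn gave 32 to 873 in the table and 0 to 9 in the lists, the highest without cryopreserved replicate 1 and, in the table, the lowest without fresh replicate 3. With a replicate block 33 genes and 0 of the lists were called. Same-numbered libraries share only a number: their deviations from group means correlated at -0.0653, -0.133 and 0.0584 for replicates 1, 2 and 3. Over 26 named genes, 331 of 388 alternative results kept direction and side of the threshold, 40 lost a call and 13 gained one. Most of the 26 genes were not called in the main fit and so had no call to lose. All 40 losses fell on the few that were called, so the 331 do not measure how firm the calls are. Leaving out each library, the log2 change of SST ranged from -0.23 (without cryopreserved replicate 1) to 5.88 and that of INSR from -0.20 to 0.14. The sign turned for SST there and for INSR (0.14 without cryopreserved replicate 2, 0.11 without fresh replicate 2 and 0.00303 with cryopreserved replicates 2 and 3 left out), none of them called. The cause of these changes was not tested. Depth limits the low libraries: 3 counts are 0.426 CPM in cryopreserved replicate 2 and 0.163 CPM in fresh replicate 2.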
